A study of Homo sapiens with 3 samples.

Results

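The darkest Giemsa bands of the autosomes held 334 HDAC1 summits in untreated HepG2 cells and 395 in HepG2 cells given H89. These are all summits on chromosomes 1 to 22 that fall in hg19 bands of the class gpos100, the darkest of the Giemsa stain classes, whatever their score. They made up 3.52% of the 9476 summits listed for the control library and 3.42% of the 11553 listed for the H89 library. HepG2 is a human hepatocellular carcinoma line, here titled wild type in both conditions, and H89 is a compound that inhibits the kinase PKA. Its dose and duration are not given in the labels. Binding was profiled by CUT&Tag, in which an antibody tethers a transposase to chromatin so that the DNA beside the target protein is cut and sequenced. Each condition had 1 library, and an IgG library of untreated cells was not analysed here.

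HDAC1 is a histone deacetylase that works inside the SIN3, NuRD and CoREST corepressor complexes. It is found at many active promoters and enhancers as well as at silenced genes. Dark Giemsa bands are AT-rich and poor in genes, replicate late in S phase and often lie against the nuclear lamina. Long genes for cell adhesion and neuronal proteins are common in them.

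A summit is the single base at which the peak caller placed the highest point of a peak. Its score is read here as the −log10 of an unadjusted p-value. Positions are 1-based on hg19. A summit counts as shared when the other list has a summit within 1000 bp. Intervals are exact 95% intervals (Clopper-Pearson for shares and ratios, Poisson for densities) and reflect counting error alone. A ratio was handled as if its lists were independent, which the many shared summits contradict. With 1 library per condition there is no replicate check, the conditions were not tested against each other, and read depth is unknown.

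The darkest bands carried the fewest HDAC1 summits per Mb of the 5 Giemsa classes in both libraries. The 75 bands cover 461 Mb, which is 16.0% of the banded autosomes, and held 3.69% of autosomal control summits and 3.60% of autosomal H89 summits. Density was 0.725 per Mb in the control (interval 0.649 to 0.807) and 0.857 with H89 (0.774 to 0.946). That is 1 summit per 1.38 Mb in the control and per 1.17 Mb with H89. The second darkest class, gpos75, held 1.49 control summits per Mb (1.37 to 1.62) and 1.78 H89 summits per Mb (1.65 to 1.91). It was thus 2.06 and 2.07 times as dense. Giemsa-negative bands were 6.70 times as dense in the control and 6.90 times with H89. Assembly gaps were not subtracted from band lengths.

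**Figure D1:**
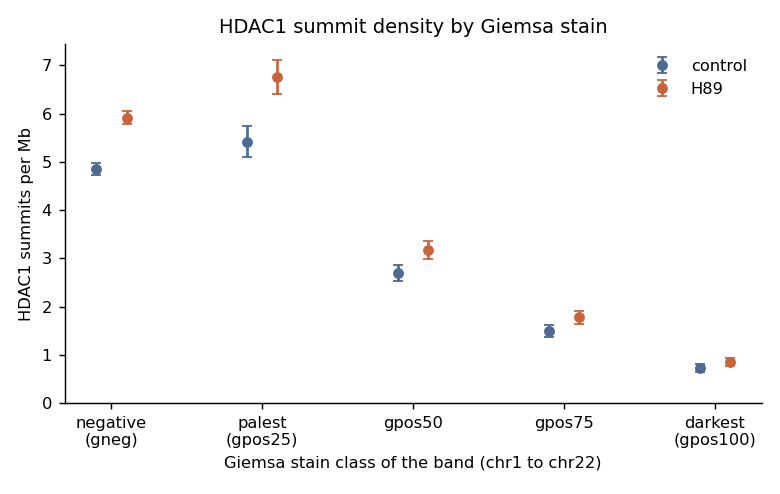
HDAC1 summits per Mb (vertical axis) in the 5 Giemsa classes of autosomal bands (horizontal axis), with exact Poisson 95% intervals as bars. The darkest class sits lowest in both libraries, at 0.725 per Mb in the control and 0.857 with H89.

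The number of summits was higher with H89 in the darkest bands, by a ratio close to that of the autosomes. Summits listed with H89 were 1.18 times (1.02 to 1.37) as many as in the control, beside 1.21 (1.18 to 1.25) over all autosomal summits and 1.19 (1.06 to 1.33) in gpos75 bands. Scores of at least 5 were held by 157 summits in the control and 202 with H89, which gives 1.29 (1.04 to 1.60), beside 1.33 over the autosomes. Scores of at least 10 were held by 25 and 36, which gives 1.44 (0.841 to 2.50), beside 1.85 (1.67 to 2.04). The last interval in the darkest bands includes both 1 and the autosomal ratio.

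HDAC1 summits were spread unevenly over the 75 bands. In the control 64 bands held at least 1 summit, with a median of 3 per band and a maximum of 30. With H89 68 bands did, with a median of 4 and a maximum of 32. All 64 bands occupied in the control were also occupied with H89, and 4 bands held summits with H89 alone. Those were 2q22.3, 4p15.1 and 4q28.3 with 1 summit each and 13q33.3 with 2. Across the 68 occupied bands, 38 held more summits with H89, 19 held equal numbers and 11 held fewer. The H89 list was 1.21 times as long over all autosomes, so this count is not a result about dark bands. In the 11 bands with fewer, the deficit was 1 or 2 summits, as in 12p12.3 with 5 control and 3 H89 summits.

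Of the 75 bands, 7 held no summit in either library, and they add up to 35.4 Mb. On chromosome 5 these were 5p14.3 (18400001 to 23300000) and 5p14.1 (24600001 to 28900000), a region known for the cadherin genes CDH18, CDH12, CDH10 and CDH9. Band 4q13.1 (59500001 to 66600000), the longest of the 7 at 7.1 Mb, is known for EPHA5, an ephrin receptor, and ADGRL3, an adhesion receptor. On chromosome 13 the empty bands were 13q21.1 (55300001 to 59600000), home of the protocadherin gene PCDH17, and 13q21.33 (68600001 to 73300000), home of the transcriptional regulator gene DACH1. The remaining empty bands were 8q23.3 (112100001 to 117700000), which carries CSMD3, and 11q14.3 (88300001 to 92800000), which carries FAT3 and the tyrosinase gene TYR. Genes are named here by their known cytogenetic band only. No summit was assigned to a gene.

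The richest dark bands lay on chromosomes 14, 16 and 6. Band 14q12 (24600001 to 33300000), known for the proteasome activator genes PSME1 and PSME2, held 30 control and 32 H89 summits. Between 25287353 and 31027221, over 5.74 Mb, it held none in either library. Band 16q21 (57400001 to 66700000), known for the cadherin genes CDH8 and CDH11 and for GOT2, a mitochondrial aspartate aminotransferase, held 25 and 24. Most of this band was empty, with no summit of either library between 58768134 and 66440735, over 7.67 Mb. Band 6p12.1 (52900001 to 57000000), known for GCLC of glutathione synthesis and the fatty acid elongase ELOVL5, held 16 in each library. It was the densest of all, at 3.90 summits per Mb in both. Band 14q21.1 (37800001 to 43500000), where the gene of the liver pioneer factor FOXA1 lies, held 12 and 14. Next came a tie at 24 summits over both lists, between 1q41 (214500001 to 224100000) with 9 and 15 and 11q14.1 (77100001 to 85600000) with 12 and 12.

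These 6 bands cover 9.96% of the dark sequence and held 31.1% of its control summits and 28.6% of its H89 summits. By density, 14q21.3 (47200001 to 50900000) is among the first 5 in place of the tied bands, with 12 control and 11 H89 summits, or 3.24 and 2.97 per Mb. At the other end, 62 of the 75 bands held fewer than 1 control summit per Mb, and 50 held fewer than 1 H89 summit per Mb.

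**Figure D2:**
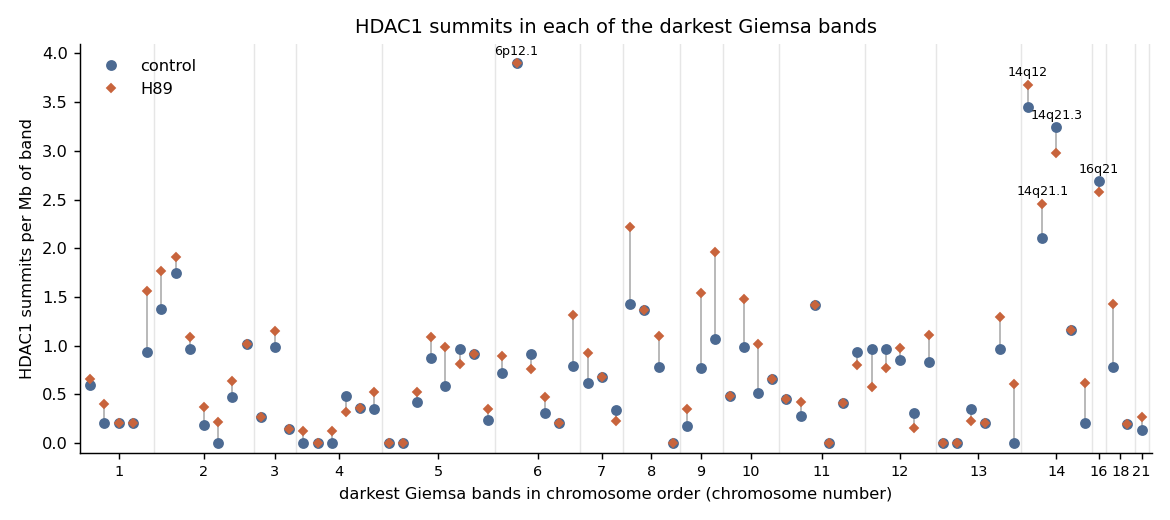
Summits per Mb of band (vertical axis) in each of the 75 darkest bands, ordered along chromosomes (horizontal axis), with a grey line joining the control and H89 values of a band. The 5 densest bands are labelled, and 6p12.1 is highest at 3.90 per Mb in both libraries.

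By chromosome, the dark bands of 14 and 16 stood highest. The 5 dark bands of chromosome 14 held 60 control and 65 H89 summits, 2.20 per Mb (1.68 to 2.83) and 2.38 per Mb (1.84 to 3.03). The single one of chromosome 16 held 2.69 (1.74 to 3.97) and 2.58 (1.65 to 3.84). The other 15 chromosomes with dark bands ranged from 0.132 to 0.994 per Mb in the control and from 0.219 to 1.27 with H89. Chromosome 4 held 7 control and 9 H89 summits on 41.1 Mb of dark bands, and chromosome 13 held 7 and 9 on 29.1 Mb. Chromosomes 15, 17, 19, 20 and 22 have no band of this class.

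HepG2 is known to carry extra copies of chromosomes 2, 14 and 16. The density over their dark bands was 1.55 in the control and 1.69 with H89, and over those of the other 14 chromosomes 0.558 and 0.688. Chromosome 2 alone held 0.856 and 1.03. Copy number was not measured here, and its part in these densities was not tested. Without chromosome 14 the dark-band density was 0.632 in the control and 0.761 with H89. In their dark bands, 14 of the 17 chromosomes had more summits listed with H89. Numbers were equal on chromosome 11 (25 each) and lower with H89 on chromosomes 12 (22 and 20) and 16 (25 and 24). The interval of the ratio included 1 on each of the 17. Over whole chromosomes, the H89 list was the longer on each of the 17.

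Dark bands also held fewer summits than the bands beside them, with exceptions. All but 1 of their 128 neighbouring bands are Giemsa-negative, and the density over these neighbours was 3.22 in the control and 3.81 with H89. With both lists counted together, 38 of the 75 dark bands were less dense than either neighbour, 31 lay between their neighbours and 3 were denser than both. The remaining 3 are empty bands tied with an empty neighbour. The 3 denser bands were 14q21.1, 14q21.3 and 12p12.3. The neighbours of 14q21.1 held 1.43 per Mb in both libraries, beside 2.11 and 2.46 in the band. Those of 14q21.3 held 1.45 in the control and 1.88 with H89. In 12p12.3 the order was not the same in both libraries: its density was 0.962 in the control and 0.577 with H89, and that of its neighbours 0.303 and 0.606.

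Inside the dark bands, summits lay mostly near the borders. Within 0.5 Mb of a border there were 120 control and 144 H89 summits, or 1.60 per Mb (1.33 to 1.91) and 1.92 per Mb (1.62 to 2.26). From 0.5 to 1 Mb the densities were 1.05 and 1.25, and from 1 to 2 Mb they were 0.476 and 0.565. Deeper than 2 Mb there were 65 control and 74 H89 summits on 164 Mb, or 0.396 (0.306 to 0.505) and 0.451 (0.354 to 0.566). The step from 0.5 to 1 Mb to deeper sequence is larger than the counting intervals in both libraries.

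Of all dark-band summits, 72.2% (67.0 to 76.9) in the control and 72.2% (67.4 to 76.5) with H89 lay nearer to a border than to the midpoint of their band. The median distance from a border was 0.761 Mb in the control and 0.781 Mb with H89. In the 0.5 Mb outside the borders, 2.31 control and 2.70 H89 summits per Mb were found, and from 1 to 2 Mb outside 3.19 and 3.77. The gpos75 bands also held more near the border: 1.94 control summits per Mb in the outermost 0.5 Mb and 1.07 deeper than 2 Mb, and 2.30 and 1.41 with H89. Giemsa-negative bands ran the other way, with 4.01 in the outermost 0.5 Mb and 5.56 deeper than 2 Mb in the control. Band borders are placed on the sequence only approximately, so a summit near a border may belong to the paler side.

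**Figure D3:**
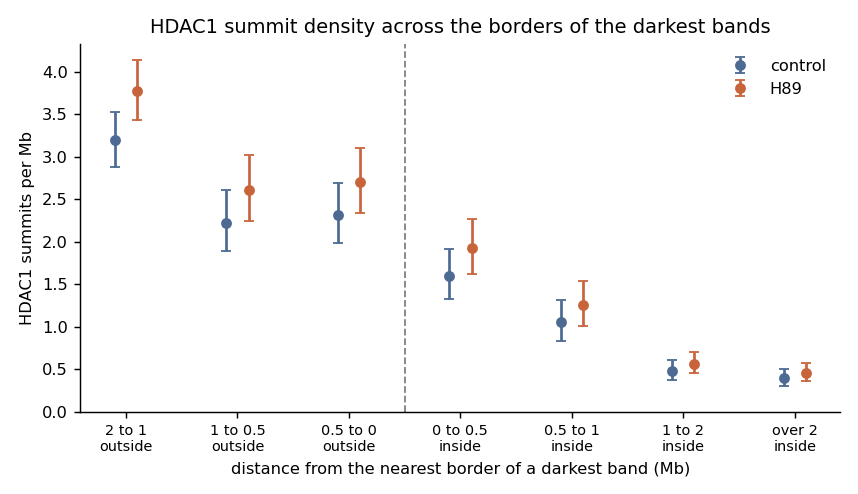
HDAC1 summits per Mb (vertical axis) by distance from the nearest border of a darkest band (horizontal axis), outside and inside, with exact Poisson 95% intervals. Density in the control goes from 3.19 at 1 to 2 Mb outside to 0.396 deeper than 2 Mb inside.

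The richest bands varied in this respect. In 14q12, 16 of the 30 control summits and 17 of the 32 H89 summits lay in the first 0.5 Mb of the band. The first was 591 bp inside the border in the control and 573 bp with H89, and the 0.5 Mb just outside it held 13 and 11. In 16q21, 12 of 25 control and 9 of 24 H89 summits lay in the first 0.5 Mb, with 8 and 8 in the 0.5 Mb outside. Without these 2 stretches the dark-band density was 0.665 in the control and 0.802 with H89. Band 14q21.3 had 11 of 12 control and 10 of 11 H89 summits in its last 1 Mb. Band 6p12.1 had 8 of 16 control and 9 of 16 H89 summits within 0.5 Mb of a border. Band 14q21.1 did not share this placement, with 3 of 12 control and 4 of 14 H89 summits within 0.5 Mb of a border.

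HDAC1 summits lay further apart in dark bands than over the autosomes as a whole. The distance to the nearest summit of the same list had a median of 72.8 kb in the control, with quartiles of 13.5 and 267 kb, and of 63.0 kb with H89, with quartiles of 13.8 and 248 kb. Over all autosomal summits the medians were 28.4 and 22.6 kb, and in gpos75 bands 54.2 and 48.4 kb. A neighbour within 5 kb was present for 17.1% of dark-band control summits (13.2 to 21.5), beside 21.2% (20.4 to 22.1) over the autosomes. With H89 the shares were 16.5% (12.9 to 20.5) and 24.4% (23.6 to 25.2). The dark-band control interval includes the autosomal share. In gpos75 bands 15.6% of control and 18.6% of H89 summits had such a neighbour. No neighbour within 500 kb was found for 16.5% (12.7 to 20.9) in the control, beside 3.82% (3.43 to 4.24), and for 14.7% (11.3 to 18.6) with H89, beside 2.89% (2.59 to 3.23).

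**Figure D4:**
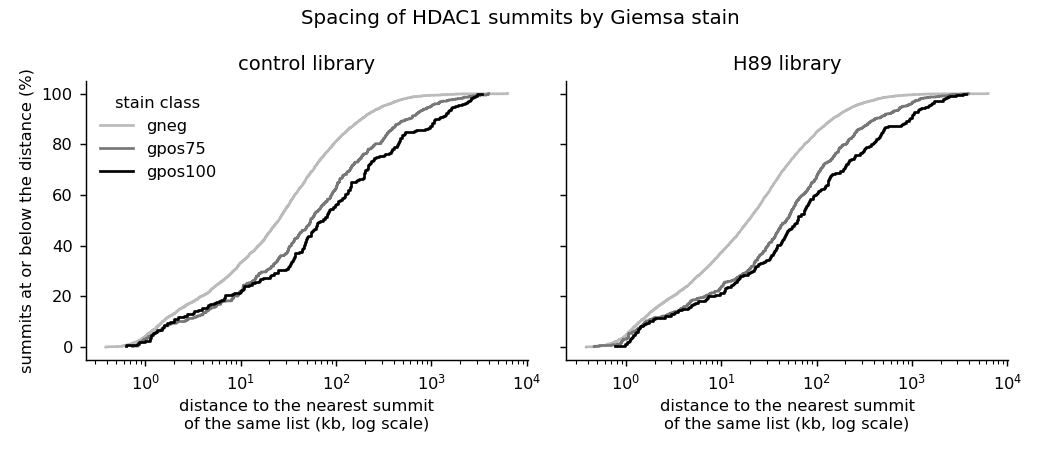
Share of summits (vertical axis, %) whose nearest summit of the same list lies at or below a given distance (horizontal axis, kb, log scale) in Giemsa-negative, gpos75 and gpos100 bands. The gpos100 curve overlaps the gpos75 curve at short distances and lies to the right of both others at longer ones, with medians of 72.8 kb in the control and 63.0 kb with H89.

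When summits of 1 list less than 100 kb apart were linked, 44.3% of control and 40.8% of H89 summits stayed single. There were 22 control runs of 3 or more, with 104 summits in all, and 29 H89 runs with 128. The largest run stood at the start of 14q12, with 16 control summits over 395 kb and 17 H89 summits over 311 kb. The next control run, at the start of 16q21, had 15 summits over 522 kb. With H89 the longest run in that band had 8 summits over 303 kb. A run in 14q21.1, from 39486781 to 39736081 in the control, had 7 summits in each library, over 249 and 250 kb.

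Long stretches without any summit made up much of the dark sequence. In the control 48.7% of it lay more than 1 Mb from any summit, and 45.9% with H89. The same shares were 26.3% and 23.0% in gpos75 bands and 8.18% and 6.89% in Giemsa-negative bands. Outside centromeric, variable and stalk bands, 59 autosomal stretches over 4 Mb between neighbouring summits held no summit of either list. Dark bands made up most of 40 of them, and 213 of their 361 Mb in total. The longest ran for 17.4 Mb on chromosome 5, from 14728625 in 5p15.2 to 32174558 in 5p13.3, and spanned both empty cadherin bands. Dark bands made up 52.7% of it. The next was 13.0 Mb on chromosome 13 from 80915383 to 93880580, of which 82.3% lay in 13q31.1 and 13q31.3. After it came 9.92 Mb on chromosome 18 from 33756364 to 43678140, with no dark sequence in it. Another, 9.34 Mb on chromosome 2 from 139259619 to 148601670, covered parts of 2q22.1 and 2q22.3.

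Most dark-band sites were listed in both libraries, at shares close to the autosomal background. An H89 partner was found for 298 of the 334 control summits (89.2%, 85.4 to 92.3), beside 87.5% of all autosomal control summits. A control partner was found for 297 of the 395 H89 summits (75.2%, 70.6 to 79.4), beside 72.4%. Both intervals include the background, so these are not results about dark bands. The share rose with the score in the same way as over the autosomes. Among H89 summits scoring from 2 up to 3 it was 48.3% in dark bands and 46.3% over the autosomes. From 5 up to 10 it was 91.0% and 88.6%. All 36 dark-band H89 summits scoring 10 or more were shared (90.3% to 100%), beside 98.7% over the autosomes. All 25 in the control were shared as well (86.3% to 100%), beside 99.8%.

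Paired summits are those that are each other's nearest within 1000 bp. There were 294 such pairs in dark bands, and none crossed a dark border. Their median offset was 62 bp, with quartiles of 21.3 and 142.5 bp, beside a median of 53 bp over 7818 autosomal pairs. Offsets were shorter at high scores, with a median of 27.5 bp for the 36 pairs averaging at least 10 and 99 bp for the 77 averaging from 2 up to 4. The autosomal medians in those classes were 30 and 76 bp.

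Scores of 10 or more were about as common in dark bands as over the autosomes, while a somewhat larger share reached 5. In the control they ran from 2.04 to 22.3, with a median of 4.77 and an upper quartile of 6.70. With H89 they ran from 2.03 to 27.5, with a median of 5.49 and an upper quartile of 7.22. The autosomal medians were 4.77 and 4.76, the upper quartiles 5.51 and 6.92, and the maxima, over many more summits, 76.5 and 133.1. A score of 20 or more was reached by 0.599% (0.0726 to 2.15) of dark-band control summits and 0.684% of autosomal ones, and by 1.52% (0.559 to 3.28) and 1.43% with H89. A score of 5 or more was reached by 47.0% (41.6 to 52.5) of dark-band control summits, beside 41.9% of all autosomal ones, and by 51.1% (46.1 to 56.2) with H89, beside 46%. A score of 10 or more was reached by 7.49% (4.90 to 10.9), beside 6.43%, and by 9.11% (6.47 to 12.4) with H89, beside 9.78%. At 5 or more, the dark-band control interval includes the autosomal share, and the H89 interval starts just above it. The gpos75 bands had shares of 48.2% and 51.1% at 5 or more, so the larger share is not particular to dark bands.

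Only 57 different scores occurred among the dark-band control summits, and 64 among the H89 ones. The commonest in the control were 3.45 (70 summits), 5.50 (61), 2.97 (32) and 7.67 (29). With H89 they were 5.49 (77 summits), 3.44 (74), 2.96 (29) and 7.66 (27). Scores of 3.45, 5.50, 7.67, 9.94, 12.3 and 14.7 in the control equal Poisson upper tail probabilities of 2, 3, 4, 5, 6 and 7 counts at a single mean of 0.0269, which was itself set from the commonest score between 5 and 6. A score within 0.001 of a step, up to 24 counts, was taken as on it. The steps of that mean held 55.7% (50.2 to 61.1) of dark-band control summits and 59.1% (55.0 to 63.1) in gpos75 bands. They held 47.5% in gpos50 bands, 36.3% in gpos25 bands and 38.9% (37.7 to 40.2) in Giemsa-negative bands. With H89 the mean was 0.0271, and the shares were 55.4% (50.4 to 60.4) in dark bands, 59.1% in gpos75 bands and 38.6% (37.5 to 39.7) in Giemsa-negative bands. What sets the mean was not tested, and the number of fragments at a summit was not analysed here.

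Paired dark-band sites more often had the higher score in the H89 list, at a share near that of the autosomes. Differences up to 0.1 were counted as equal. Neighbouring score steps, such as 3.45 and 5.50 in the control, lie further apart than that. A pair counted as higher in either list can therefore differ by 1 step. Of the 294 pairs, 149 (50.7%, 44.8 to 56.5) scored higher with H89, beside 49.8% of autosomal pairs. In 50 (17.0%, 12.9 to 21.8) the control scored higher, beside 14.6%, and 95 were equal. The median difference, H89 minus control, was 0.73, with a range from -4.80 to 10.8. It was 0 over all autosomal pairs, -0.01 in gpos75 and gpos50 bands, 0.57 in gpos25 bands and 0.13 in Giemsa-negative bands. Few different scores occur, so this median can shift by a large step when the shares change little. In the top class, the 36 pairs averaging at least 10, H89 gave the higher score in 30 (83.3%, 67.2 to 93.6) and the control in 4. Their median difference was 3.66. The autosomal share in that class was 75.0% and the median difference 2.54. From 6 up to 10 the dark-band share was the lower one. Of 78 dark-band pairs, 38 (48.7%, 37.2 to 60.3) were higher with H89, beside 64.2% (62.0 to 66.3) over the autosomes. The control was higher in 17 (21.8%), beside 12.9%. Score classes were set after the values had been seen, and pairs of 1 library per condition carry no replicate error.

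**Figure D5:**
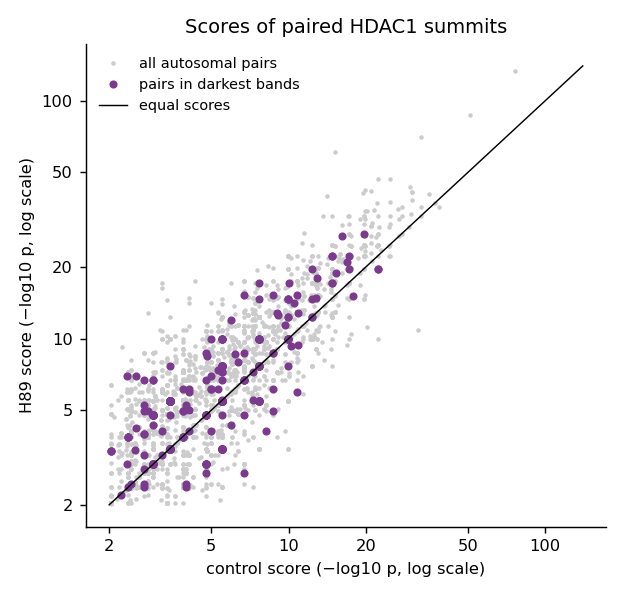
Score with H89 (vertical axis) against score in the control (horizontal axis), both −log10 p on log scales, for pairs in the darkest bands (purple) and all autosomal pairs (grey), with the line of equal scores. Most dark-band pairs above a score of 10 lie above the line, and none reaches 30.

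The 10 strongest shared dark-band sites, ranked by mean score, lay in 9 bands on 7 chromosomes, and 8 of them scored higher with H89. The H89 score enters that ranking. The strongest was in 2p16.1, with its summit at 55459628 of chromosome 2 in the control (score 19.7) and at 55459605 with H89 (27.5). It ranked 73 of 9058 autosomal control summits and 52 of 10985 H89 summits. The second was in 14q21.1, at 39901958 of chromosome 14 in the control (16.2) and 39901961 with H89 (27.0), 2.10 Mb inside the band. Among all dark-band pairs this one had the largest rise with H89, 10.8.

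Next came 2 sites with equal scores, 22.3 in the control and 19.7 with H89, the only ones of the 10 that scored lower with H89. They lay at 209120068 of chromosome 2 in 2q34 and at 77899564 of chromosome 11 in 11q14.1 (control positions). Both were the highest-scoring dark-band summits of untreated cells, tied at rank 34. A site in 5q34, at 162932747 of chromosome 5 in the control (17.2) and 162932731 with H89 (22.2), lay 3.03 Mb from the nearest border. Band 5q34 holds 2 control and 3 H89 summits on 8.6 Mb.

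Sites in 4q32.3 and 16q21 also shared their scores, 14.7 in the control and 22.2 with H89. The first lay at 166248688 of chromosome 4 in the control and 12 bp away with H89. The second lay at 58549601 of chromosome 16 and 43 bp away with H89. Band 4q32.3 holds 2 summits in each library. In 3q26.1, the site at 167452601 of chromosome 3 (17.2 in the control, 19.7 with H89) was the only one of its 6.9-Mb band in either library, 0.147 Mb from the border. Band 14q12 gave the other two, at 24768918 (16.8 and 21.0) and at 24911767 (15.3 and 18.8), both within its first 0.5 Mb. Of the 10 sites, 5 lay within 0.5 Mb of a border, as did 14 of the 36 pairs averaging at least 10. Over all dark-band summits that share was 35.9% in the control and 36.5% with H89. Neither count is read as a trait of strong sites. Those 36 pairs fell in 20 bands, with 8 of them in 14q12.

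The fifth largest rise with H89 was a tie between the sites in 4q32.3 and 16q21, so 6 pairs had the largest rises, and 4 of them are among the 10 above. The other two were a site in 4q34.3 at 182162048 of chromosome 4, which scored 7.67 in the control and 17.2 with H89, and a site in 8p22 at 17780275 of chromosome 8, which scored 6.70 and 15.2. The 5 pairs furthest in the other direction differed by less. In 14q12, the site at 24682540 of chromosome 14 scored 10.8 in the control and 5.95 with H89, and the site at 24616271 scored 17.9 and 15.2. In 16q21, the site at 57406817 of chromosome 16, 6816 bp inside the border, scored 8.18 and 4.08. The site at 22656964 of chromosome 11 in 11p14.3 scored 6.70 and 2.72, and that at 38065224 of chromosome 14 in 14q21.1 scored 8.72 and 4.97. Of these 5, 4 lay within 0.5 Mb of a border, beside 35.9% of all dark-band control summits. With 5 sites this is a description only.

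Summits listed in 1 library only were weak, in dark bands as over the autosomes. The 98 dark-band H89 summits without a control partner lay in 48 bands and had a median score of 3.44, and 15 of them (15.3%) scored 5 or more. All autosomal H89 summits without a partner had the same median, with 15.4% at 5 or more. The 36 control summits without an H89 partner lay in 23 bands and had a median of 3.45, which is also the autosomal median, and 2 (5.56%) scored 5 or more, beside 10.5%. None of either dark-band set scored 10 or more. Over the autosomes such scores were also rare without a partner, at 14 of 3029 H89 and 1 of 1131 control summits. The nearest control summit was at a median of 93.5 kb for the H89 set, beside 31.5 kb for all autosomal H89 summits without a partner. More than 1 Mb from any control summit lay 11 of the 98, beside 47 of 3029 over the autosomes. Summits of both lists were also sparser in dark bands. Absence from a list can be a score below the caller's threshold, which is not known, and does not show that HDAC1 was absent.

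The highest H89-only dark-band summit was in 4p15.1 at 30279946 of chromosome 4, with a score of 9.92. It was the only summit of that 8.1-Mb band in either library, and the nearest control summit lay 3.46 Mb away. Next came 8p22 at 17658716 of chromosome 8 (8.15, nearest control summit 0.0140 Mb away). Sites in 10q21.3 at 64576378 of chromosome 10 and in 14q21.1 at 38016046 of chromosome 14 both scored 7.66, with the nearest control summit 317 and 41.8 kb away. The fifth, in 1p31.1 at 84543473 of chromosome 1, was 1 of 10 tied at 5.49. The highest control-only summits were in 6q12 at 67805661 of chromosome 6, 2.70 Mb from the nearest H89 summit, and in 12p12.3 at 14927036 of chromosome 12, 3.63 kb away, both with a score of 5.50. Those in 11q14.1 at 77705914 and 2q36.3 at 228686361 scored 4.98 and 4.77. The fifth, in 1q41 at 217804474, was 1 of 15 tied at 3.45.

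The 6 dark bands of chromosome X, which are not among the bands above, held 8 summits in each library on 37.5 Mb, or 0.213 per Mb.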

How the data were processed

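CUT&Tag libraries of HepG2 cells without or with H89 were examined, 1 each. Bowtie 0.12.2 and the build hg19 come from the submitters' processing notes. For the peak caller, its threshold and control library, and read filters: not given in the sources used here. The authors deposited 1 list of 1-bp summits per library, matched to samples by peak names. Those names hold control or treatp, which were read as the titles WT_control and WT_treated. The deposited score was read as −log10 of a p-value from its values: Poisson tail steps from 2 to 7 counts matched to within 3.28e-05. Read depth is unknown.

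Summits were placed in bands of the hg19 table of circlize 0.4.16, and all 24 of its chromosome lengths equal those in GenomeInfoDb. No hg19 genome or gene table was at hand, so no sequence is printed and no summit was assigned to a gene. Genes named beside bands are background knowledge; they fall outside the rule for named sites, which asked for a reference of that build, and were chosen after the band counts were seen.

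Sharing, pairing, spacing and border distances were computed in Python 3.11.15 with pandas 2.3.3 and scipy 1.17.1, and the functions were tested on simulated data. Named sites are the 10 highest-scoring pairs, the 5 highest summits without a partner in each list and the 5 largest score differences each way. Named bands are the 5 with the most summits, the 5 densest and all empty ones; where the last place was tied, both are given. Exceptions named beside counts of bands, and the runs and gaps, were chosen after their values were seen. Band class, rules and lists were chosen with earlier results of these data known. Alternatives covered score minimum, border margin, chromosome X, merging, equal list sizes, partner distance, ties and chromosome 14.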

Additional observations from a re-analysis of the deposited data

How the results depend on the processing

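Of 61 values recomputed under alternatives, 41 stayed inside the 95% interval of the reported value (or, for counts of bands, within 1.5 times). The number of dark bands holding summits, the share of pairs higher with H89 and all values with chromosome X or with summits within 500 bp merged were among these. The others follow. With a score of 5 or more in both lists, density was 0.341 per Mb in the control and 0.438 with H89, median spacing 194 and 197 kb, and the shared H89 part 67.3%. At least 500 kb inside the band, density was 0.554 and 0.650 per Mb and H89 spacing 85.0 kb. With equal numbers of top summits, set by the control list, the H89 to control ratio was 1.02, H89 density 0.738 per Mb and the shared parts 81.4% and 79.7%. Equal lists fix the overall ratio at 1 by construction. The shared parts were 1.80% and 1.52% at the same base and 58.1% and 49.1% within 100 bp, and the control part was 84.7% within 500 bp. Alternatives added after seeing the data gave a ratio of 1.44 at a score of 10 or more, and densities of 0.632 and 0.761 per Mb without chromosome 14. No paired analysis was possible because the design has 1 HDAC1 library for each treatment. Unknown depth limits every value.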
